A study of Mus musculus with 22 samples.

Results

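RNA of the nucleus accumbens of mice with an antibiotic-depleted gut microbiome was compared between morphine and saline. The library titles put 5 libraries in the morphine group and 6 in the saline group, of 22 libraries in the study. All mice were conventionally raised C57BL/6J males of 7 to 9 weeks, and no mutant allele is named. Both groups were given antibiotics that the gut does not absorb, so the depletion is shared and is not itself compared here. The morphine group received 20 mg/kg per day for 7 days, and the other group received saline. The remaining 11 libraries, 5 of morphine and 6 of saline mice labelled H2O and called water mice here, entered the same statistical model and are used below to test whether a morphine change differed. Which antibiotics were given, the time between the last dose and dissection, and whether a library holds tissue of 1 mouse or of several are missing from the labels. The files hold no measure of gut bacteria. Nothing in the labels ties libraries to separate animals, so the p-values measure the spread between libraries, which may be technical in part.

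The nucleus accumbens is the ventral part of the striatum and takes part in reward and drug seeking. Most of its cells are inhibitory projection neurons that carry D1 or D2 dopamine receptors and make the opioid peptides dynorphin or enkephalin. Morphine activates the mu-opioid receptor, which acts through inhibitory G proteins, and in rodents it also releases adrenal glucocorticoids, which enter the brain and induce genes through the glucocorticoid receptor. Gut bacteria ferment fibre to short-chain fatty acids, and mice without them are known to have altered microglia, the resident macrophages of the brain.

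Genes received 9357299 to 13701331 counts per library. Levels are given in CPM, the usual depth-scaled unit of counts, after scaling between libraries, and the 22 libraries yielded 14564 genes with enough counts to test. Markers of the labelled tissue were abundant: the 28 genes of a striatal projection neuron list summed to 7396 to 15000 CPM per saline library and 10020 to 12780 CPM per morphine library. The lowest sum belonged to saline library 5, which also stood apart on the first principal component and had 18.4 CPM of Bhlhe22, a cortical marker, where the other saline libraries had 1.68 to 5.95 CPM. Saline library 6 and morphine library 4 had the highest levels of the nuclear RNA Malat1, 2463 and 1007 CPM, and the highest shares of counts outside genes, 15.4% and 12.5%. The length slope, the change of log2 CPM per doubling of transcript length, was 0.026 to 0.055 in the morphine libraries, -0.053 to -0.0082 in saline libraries 1 to 5 and 0.048 in saline library 6. In water mice it was -0.078 to -0.011 after saline and 0.028 to 0.047 after morphine. Results below are therefore also given with the length slope in the model, and their relation to length is described further on. That model ended the call of 59 of the 96 named genes that passed. The slope went with morphine in both kinds of mice, apart from saline library 6. Where a call was lost, the parts of slope and morphine cannot be told apart.

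Morphine against saline changed 1900 genes past the threshold, 936 higher and 964 lower, which is 13% of the genes tested (edgeR quasi-likelihood F-test, Benjamini-Hochberg adjusted p under 0.05, two-sided). The changes were small. Their median size was 0.28 on the log2 scale, and 90% were below 1.5-fold. Only 125 higher and 65 lower genes reached 1.5-fold, and 15 higher and 6 lower genes reached 2-fold. In 1861 of the 1900 every morphine library lay beyond the saline mean in the direction of the change. In 794 the ranges of both groups did not overlap. The 1900 were picked by p from these same libraries, so both counts follow in part from that choice and are no separate support. Over all genes tested 918, or 6.3%, had ranges that did not overlap, 3.14% higher and 3.17% lower. These 918 include the 794. DESeq2 called 2115 genes (14.5%, with 6.67% higher and 7.86% lower), 1860 of them shared. Limma-voom called 1941 (13.3%, with 6.88% higher and 6.45% lower), 1843 of them shared. A model of only the antibiotic groups called 1187 genes (8.3%, with 4.37% higher and 3.94% lower). Leaving out saline library 1, morphine library 1 or morphine library 3 left 1084, 1101 and 1121 genes, and leaving out both libraries with the highest Malat1 left 1563. Adding the length slope to the model left 138 genes (0.948%), 46 higher (0.316%) and 92 lower (0.632%), and 122 of them were among the 1900.

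The largest rise was in Wnt10b, a secreted Wnt ligand. It lay at 0.850 to 1.40 CPM (median 1.15) in the saline libraries and at 6.69, 4.42, 6.74, 6.14 and 4.33 CPM in morphine libraries 1 to 5. Every morphine library exceeded every saline library, and the fitted level was 5.01-fold higher (log2 change 2.33 ± 0.19, adjusted p = 2.06e-07). Itgad, the integrin alpha D chain of macrophages and other leukocytes, lay at 0.421 to 0.866 CPM (median 0.827) after saline and at 3.17, 2.71, 3.65, 3.42 and 2.52 CPM after morphine, again without overlap (4.26-fold, log2 change 2.09 ± 0.33, adjusted p = 0.000325). Ccl17, a chemokine, lay at 0.631 to 1.73 CPM (median 0.962) after saline and at 3.71, 1.86, 2.46, 3.50 and 1.88 CPM after morphine (log2 change 1.37 ± 0.28, adjusted p = 0.00265). Insl6, an insulin-like peptide best known from testis, lay at 0.415 to 1.07 CPM (median 0.678) after saline and at 1.45, 1.78, 3.33, 1.63 and 1.44 CPM after morphine (log2 change 1.42 ± 0.30, adjusted p = 0.00344). These 4 transcripts were scarce, at no more than 6.74 CPM in any of the 11 libraries, and their groups did not overlap. Itgad reached no more than 0.706 CPM in the water libraries. It had enough counts to test only through the antibiotic-morphine libraries, where it was high. With the length slope in the model Wnt10b and Itgad still passed (adjusted p = 0.00176 and 0.0412), while Ccl17 and Insl6 did not (adjusted p = 0.103 and 0.154).

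Among better expressed genes, the smallest p-values for a rise were those of Shprh, Xrn1 and Ncapd3. Shprh, a helicase and ubiquitin ligase of post-replication repair, lay at 42.4 to 47.2 CPM (median 44.7) after saline and at 65.8, 58.3, 62.7, 57.5 and 64.7 CPM after morphine (log2 change 0.47 ± 0.051, adjusted p = 1.73e-05). Xrn1, the main 5′ to 3′ exonuclease of cytoplasmic messenger RNA, lay at 17.5 to 23.6 CPM (median 21.6) after saline and at 40.2, 34.2, 40.1, 33.6 and 35.5 CPM after morphine (log2 change 0.82 ± 0.092, adjusted p = 2.38e-05). Ncapd3, a condensin subunit, lay at 31.5 to 44.5 CPM (median 37.8) after saline and at 55.9, 51.9, 58.95, 61.9 and 55.6 CPM after morphine (log2 change 0.59 ± 0.071, adjusted p = 3.75e-05). In each of these 3 the lowest morphine library was above the highest saline library. Pik3c2a, a class II phosphoinositide 3-kinase of endocytosis, rose by 0.49 ± 0.063 with morphine libraries at 35.2 to 40.5 and saline libraries at 23.9 to 30.1 CPM (median 27.4). Kdsr, which makes the sphingolipid precursor dihydrosphingosine, rose by 0.46 ± 0.061, with saline libraries at 30.7 to 40.5 CPM (median 32.9) and morphine libraries at 43.3 to 49.4 CPM. Nfrkb, a subunit of the INO80 chromatin remodeller, rose by 0.49 ± 0.068 and Sf3b1, a core splicing factor, by 0.37 ± 0.056. All 7 of these genes also passed with the length slope in the model.

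The smallest p-values for a fall were those of Pycrl and Fabp7. Pycrl, an enzyme of proline synthesis, lay at 17.9 to 19.9 CPM (median 19.4) after saline and at 10.7, 13.2, 12.3, 12.4 and 13.2 CPM after morphine (log2 change -0.62 ± 0.072, adjusted p = 2.98e-05). Fabp7, a lipid carrier made by astrocytes and by progenitors, lay at 17 to 27.5 CPM (median 21.9) after saline and at 9.95, 9.92, 11.7, 9.71 and 13.1 CPM after morphine, a fall to 0.497 of the saline level (log2 change -1.01 ± 0.12, adjusted p = 2.98e-05). Tufm, the elongation factor of mitochondrial translation, lay at 49.5 to 59.4 CPM (median 55.8) after saline and at 40.2, 42.95, 35.8, 42.5 and 37.9 CPM after morphine (log2 change -0.47 ± 0.058, adjusted p = 4.17e-05). No morphine library of these genes reached the lowest saline library. Pex6, an ATPase that recycles the peroxisomal import receptor, lay at 58.01 to 77.6 CPM (median 68.6) after saline and at 40.5 to 52.95 CPM after morphine, a log2 change of -0.55 ± 0.071. Serpinh1, the chaperone of collagen in the endoplasmic reticulum, lay at 14.1 to 18.3 CPM (median 17.4) after saline and at 7.96, 10.5, 6.89, 10.3 and 11.2 CPM after morphine (log2 change -0.85 ± 0.12, adjusted p = 0.000141). Smaller shifts were seen in Lasp1, an actin-binding protein, at -0.39 ± 0.055, and in Smarca4, the ATPase of the BAF chromatin remodeller, at -0.34 ± 0.049. Hexa, a lysosomal hexosaminidase, was at -0.47 ± 0.065 and Mfge8, a secreted bridge for phagocytosis, at -0.49 ± 0.074. These 9 genes had groups that did not overlap, and each also passed with the length slope in the model.

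**Figure D1:**
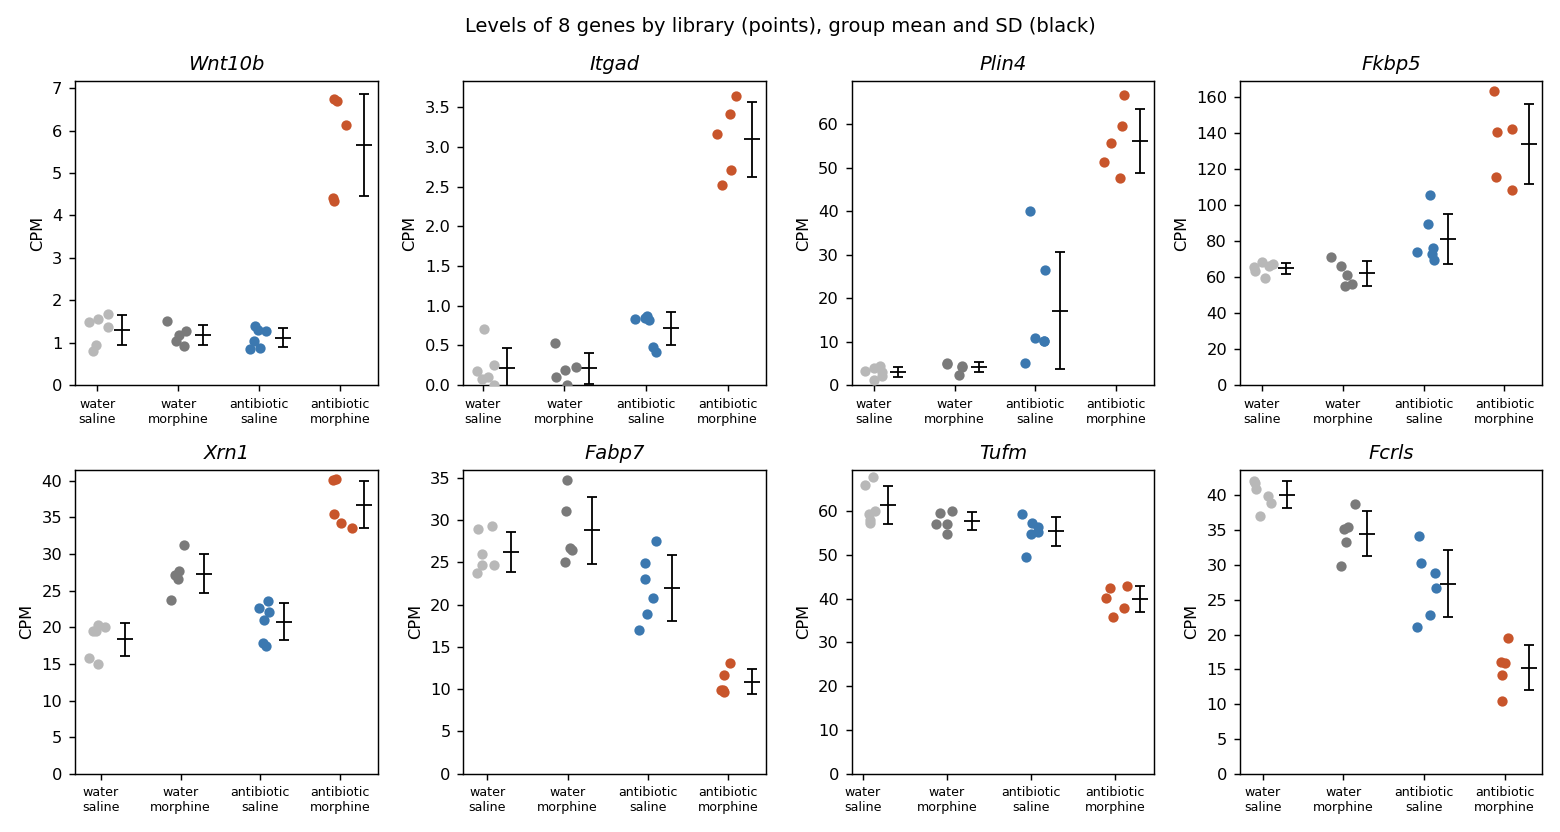
CPM of 8 genes in each of the 22 libraries (points, grey for water mice, blue for antibiotic-saline and orange for antibiotic-morphine libraries), with the group mean and SD in black. In every panel the 5 antibiotic-morphine libraries stand clear of the 6 antibiotic-saline libraries, as for Wnt10b with 4.33 to 6.74 against 0.850 to 1.40 CPM, and water mice are shown for reference.

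Glucocorticoid-responsive genes rose at 12 of 25 members tested and fell at 0, against 6.43% of all genes higher and 6.62% lower. These shares over all genes are the background for every list below. The gene lists were chosen with earlier results of these data known, so the share of a list is no separate support. The median log2 change of the glucocorticoid-responsive genes was 0.34, against -0.0024 over all genes, and 21 of the 25 had a log2 change above 0. Fkbp5, a chaperone of the glucocorticoid receptor and one of its most used target genes, lay at 69.3 to 106 CPM (median 74.9) after saline and at 140.4, 108, 163, 142 and 116 CPM after morphine (1.65-fold, log2 change 0.72 ± 0.11, adjusted p = 0.000308). Cdkn1a, the cell cycle inhibitor p21, lay at 23.3 to 29.6 CPM (median 24.2) after saline and at 53.2, 38.8, 63.3, 45.1 and 33.9 CPM after morphine (1.88-fold, log2 change 0.91 ± 0.13, adjusted p = 0.000308). Neither gene had overlapping groups. Hif3a, a hypoxia-inducible factor that glucocorticoids raise, lay at 5.70 to 15.8 CPM (median 7.64) after saline and at 24.96, 21.6, 29.2, 21.9 and 15.9 CPM after morphine (2.34-fold, log2 change 1.23 ± 0.21, adjusted p = 0.000872). Plin4, a coat protein of lipid droplets, lay at 5.02 to 40.1 CPM (median 10.5) after saline and at 51.4, 47.6, 59.7, 66.7 and 55.8 CPM after morphine (3.26-fold, log2 change 1.71 ± 0.35, adjusted p = 0.00434). Its saline libraries were spread widely, and all morphine libraries lay above them. Arrdc2, an arrestin-like adaptor, was at 0.85 ± 0.14, and Sult1a1, a sulfotransferase, at 0.81 ± 0.16, both with 1 morphine library inside the saline range. Pdk4, a kinase that restrains pyruvate oxidation, was at 0.41 ± 0.12 (adjusted p = 0.03) and missed the threshold in 7 of the 11 fits with 1 library left out (adjusted p of 0.0508 to 0.1). Nr3c1, the glucocorticoid receptor itself, lay at 82.8 to 91.5 CPM (median 87.3) after saline and 89.1, 85.4, 77.6, 85.2 and 86.1 CPM after morphine and did not pass (log2 change -0.04 ± 0.049, adjusted p = 0.611).

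The mean log2 CPM of the 25 glucocorticoid-responsive genes, minus each gene's mean over the 22 libraries, differed within the saline group. It was -0.12, 0.018 and -0.13 in saline libraries 1 to 3 and 0.309, 0.185 and 0.311 in saline libraries 4 to 6. The morphine libraries lay at 0.346 to 0.686. Leaving out any 1 library left 10 to 13 of the 25 glucocorticoid-responsive genes higher. With the length slope in the model 1 of them, Cdkn1a, passed (adjusted p = 0.0396), while the median stayed at 0.25. There Fkbp5 had a log2 change of 0.49 (adjusted p = 0.0668) and Plin4 of 0.87 (adjusted p = 0.333). In a list of 14 nuclear receptors and chaperones of steroid signalling 0 rose and 2 fell. One was Fkbp4, the cochaperone that opposes Fkbp5 on the receptor, at 131 to 146 CPM (median 138) after saline and 108, 113, 112, 119 and 121 CPM after morphine (log2 change -0.26 ± 0.060, adjusted p = 0.00613). The other, Stip1, a cochaperone that joins Hsp70 and Hsp90, was at -0.22 ± 0.068 (adjusted p = 0.031) and missed the threshold in 7 of the 11 fits with 1 library left out (adjusted p of 0.0502 to 0.0653), so that the list had 1 lower without morphine library 1, 2, 3 or 4 or saline library 1 or 5. Neither passed with the length slope.

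Clock genes leaned upward. The molecular clock is a feedback loop in which CLOCK and BMAL1 bind E-boxes, short CACGTG elements, in promoters of the Per and Cry genes whose products repress them. Of 24 members 5 rose and 0 fell, and 19 had a log2 change above 0 (median 0.13). DESeq2 called 6 higher and 1 lower. Groups did not overlap in 2 members that were higher and 1 that was lower, against 3.14% and 3.17% of all genes. Ciart, a repressor of the loop, lay at 21.2 to 31.03 CPM (median 26.2) after saline and at 34.01, 40.2, 34.2, 33.6 and 33.7 CPM after morphine, without overlap (log2 change 0.45 ± 0.082, adjusted p = 0.00102). Cry1, a cryptochrome, lay at 35.7 to 50.1 CPM (median 38.6) after saline and at 49.7, 52.1, 54.4, 61.2 and 48.6 CPM after morphine with 2 morphine libraries inside the saline range (log2 change 0.42 ± 0.088, adjusted p = 0.00342). Cry2 lay at 200 to 217 CPM (median 208) after saline and at 251, 241, 224, 245 and 220.3 CPM after morphine without overlap (log2 change 0.18 ± 0.045, adjusted p = 0.0112). Per1 lay at 166 to 208 CPM (median 178) and 228, 262, 212, 240.2 and 195 CPM (log2 change 0.34 ± 0.096, adjusted p = 0.0244), and it belongs to the glucocorticoid-responsive and immediate early lists as well. Its call was lost without morphine library 1, 2 or 4 or saline library 1, which are 4 of the 11 fits with 1 library left out (adjusted p of 0.0527 to 0.0618). Clock, at 0.23 ± 0.068 (adjusted p = 0.025), lost its call in 5 of the 11 fits with 1 library left out (adjusted p of 0.0533 to 0.08), and without saline library 1 the list had 3 genes higher. Only Ciart of the 24 passed with the length slope (log2 change 0.60, adjusted p = 0.0185). The labels give no hour of dissection, so a difference in time of day between the groups was not tested.

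The E-box was looked for in RefSeq promoters, taken as the 250 bases before each annotated start (GRCm38.p6). The 6 letters read the same on both strands, and 6.02% of 32851 mouse promoters of this length hold them. Of the 24 clock genes 19 had a promoter in the table, and 5 of these had an E-box in at least 1 promoter: Bhlhe41, Ciart, Cry1, Per1 and Tef. Counted by promoter, as for the share of all, 6 of their 28 promoters (21.4%) held it, and so did 4 of 34 (11.8%) in the glucocorticoid-responsive list. Ciart, Cry1 and Per1 were among the 5 genes that rose. The promoters of these 3 and of Fkbp5 are shown because they are the risen members of both lists that hold an E-box. They were chosen after the values were seen, as were Bhlhe41, Tef and Sgk1, named here only for their matches. Each is written 5′ to 3′ on the gene's own strand, with E-boxes in capitals.
Ciart promoter, chr3:95882229-95882478, minus strand: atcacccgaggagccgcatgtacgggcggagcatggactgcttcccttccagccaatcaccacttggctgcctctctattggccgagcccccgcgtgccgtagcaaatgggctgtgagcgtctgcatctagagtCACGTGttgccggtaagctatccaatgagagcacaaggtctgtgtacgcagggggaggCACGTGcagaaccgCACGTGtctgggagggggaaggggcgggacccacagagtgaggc
Cry1 promoter, chr10:85185055-85185304, minus strand: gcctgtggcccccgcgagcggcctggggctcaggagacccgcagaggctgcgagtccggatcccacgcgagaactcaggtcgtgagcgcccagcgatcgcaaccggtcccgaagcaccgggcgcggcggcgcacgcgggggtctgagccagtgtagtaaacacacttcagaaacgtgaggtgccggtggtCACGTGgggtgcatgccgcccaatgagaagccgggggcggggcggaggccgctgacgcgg
Per1 promoter, chr11:69098699-69098948, plus strand: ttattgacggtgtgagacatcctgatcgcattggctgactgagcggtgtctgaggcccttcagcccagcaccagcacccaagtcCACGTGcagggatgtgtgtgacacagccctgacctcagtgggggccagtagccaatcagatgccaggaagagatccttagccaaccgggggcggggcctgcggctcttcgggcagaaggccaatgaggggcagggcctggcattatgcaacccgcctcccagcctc
Fkbp5 promoter, chr17:28486150-28486399, minus strand: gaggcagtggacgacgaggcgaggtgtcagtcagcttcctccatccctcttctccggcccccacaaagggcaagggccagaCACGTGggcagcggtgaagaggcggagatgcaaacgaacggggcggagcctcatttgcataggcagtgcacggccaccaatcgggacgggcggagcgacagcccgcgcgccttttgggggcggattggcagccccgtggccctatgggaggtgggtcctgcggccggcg
The Ciart window holds 3 E-boxes, whose first bases lie 116, 58 and 44 bases before the start. The single E-box begins 60 bases before the start in Cry1, 166 in Per1 and 169 in Fkbp5. The half-site of the glucocorticoid receptor, AGAACA on either strand, was in 7 of 34 promoters (20.6%) of 22 glucocorticoid-responsive genes and in 16.1% of all promoters. The full palindromic element of the receptor, which contains that half-site, was in Sgk1 alone of the list and in 0.00913% of all promoters. Sgk1 did not pass in antibiotic mice (log2 change 0.17 ± 0.17), and its change was -0.024 without morphine library 2. A match describes these letters and does not show binding.

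Microglia genes fell at 17 of 25 members and rose at 0, the largest share of any list with at least 8 members tested. Their median log2 change was -0.33, and 24 of the 25 had a log2 change below 0. Fcrls, an Fc receptor-like protein specific to microglia, lay at 21.1 to 34.2 CPM (median 27.8) after saline and at 16.1, 19.5, 10.5, 14.2 and 15.9 CPM after morphine (0.558 of the saline level, log2 change -0.84 ± 0.12, adjusted p = 0.000307). Olfml3, a secreted matrix protein of microglia, lay at 12.3 to 20.4 CPM (median 17.6) after saline and at 7.15, 11.8, 7.13, 6.68 and 12.1 CPM after morphine (0.535, log2 change -0.90 ± 0.14, adjusted p = 0.000358). In both the highest morphine library was below the lowest saline library. Cx3cr1, the fractalkine receptor, lay at 57.9 to 77.9 CPM (median 69.9) after saline and at 51.6, 53.7, 48.1, 44.7 and 58.01 CPM after morphine, with morphine library 5 just inside the saline range (log2 change -0.43 ± 0.068, adjusted p = 0.000404). Itgam, the CD11b integrin chain, lay at 25.7 to 33.8 CPM (median 29.7) after saline and at 19.99, 23.2, 20.1, 19.6 and 25.1 CPM after morphine without overlap (log2 change -0.46 ± 0.080, adjusted p = 0.00088). Selplg, a selectin ligand, was at -0.43 ± 0.083 (adjusted p = 0.00176). The summed level of the 25 genes was 820 to 985 CPM in the saline libraries and 672 to 804 CPM in the morphine libraries. Their mean log2 CPM, minus each gene's mean over the 22 libraries, was 0.146, 0.079 and 0.076 in saline libraries 1 to 3. It was -0.151, -0.195 and -0.148 in saline libraries 4 to 6. In morphine libraries 1 to 5 it was -0.439, -0.234, -0.518, -0.499 and -0.154, with library 5 inside the saline range. In bulk tissue, fewer cells of a type and less RNA per cell cannot be told apart.

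The microglia count was 11 without morphine library 3, without saline library 1, or with only the antibiotic groups in the model. After adding the slope 1 of the 25 passed, Olfml3 (log2 change -0.86, adjusted p = 0.0369), and the median was -0.24. There Fcrls was at -0.61 (adjusted p = 0.0565) and Cx3cr1 at -0.35 (adjusted p = 0.0658). Of 26 complement and innate sensing genes 2 fell, C1qa and C1qb, which also stand in the microglia list. That share, 7.69%, is near the 6.62% of all genes that fell. C1qa, a chain of the C1q complex, was at -0.33 ± 0.077 (adjusted p = 0.0068), and C1qb at -0.25 ± 0.076 (adjusted p = 0.0302), which missed the threshold in 6 of the 11 fits with 1 library left out (adjusted p of 0.0572 to 0.0933). The complement list had 3 lower and 1 higher without saline library 6, and 1 lower without morphine library 1 or 3, saline library 1, 2 or 3, or with only the antibiotic groups. Neither passed with the length slope. Of 20 markers of other leukocytes and border macrophages only 8 had enough counts to test. Besides Itgad, described above as higher, Itgal passed as lower at -0.91 ± 0.30 (adjusted p = 0.0487), a call lost in 7 of the 11 fits with 1 library left out (adjusted p of 0.0672 to 0.12) and with the length slope (adjusted p = 0.474). The 8 genes summed to 35.1 to 87.6 CPM after saline and 56.5 to 93.2 CPM after morphine. Of 22 interferon-stimulated and MHC class I genes 0 rose and 4 fell. Of the 22 genes 0 passed with the length slope, and 2 passed with only the antibiotic groups in the model.

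**Figure D2:**
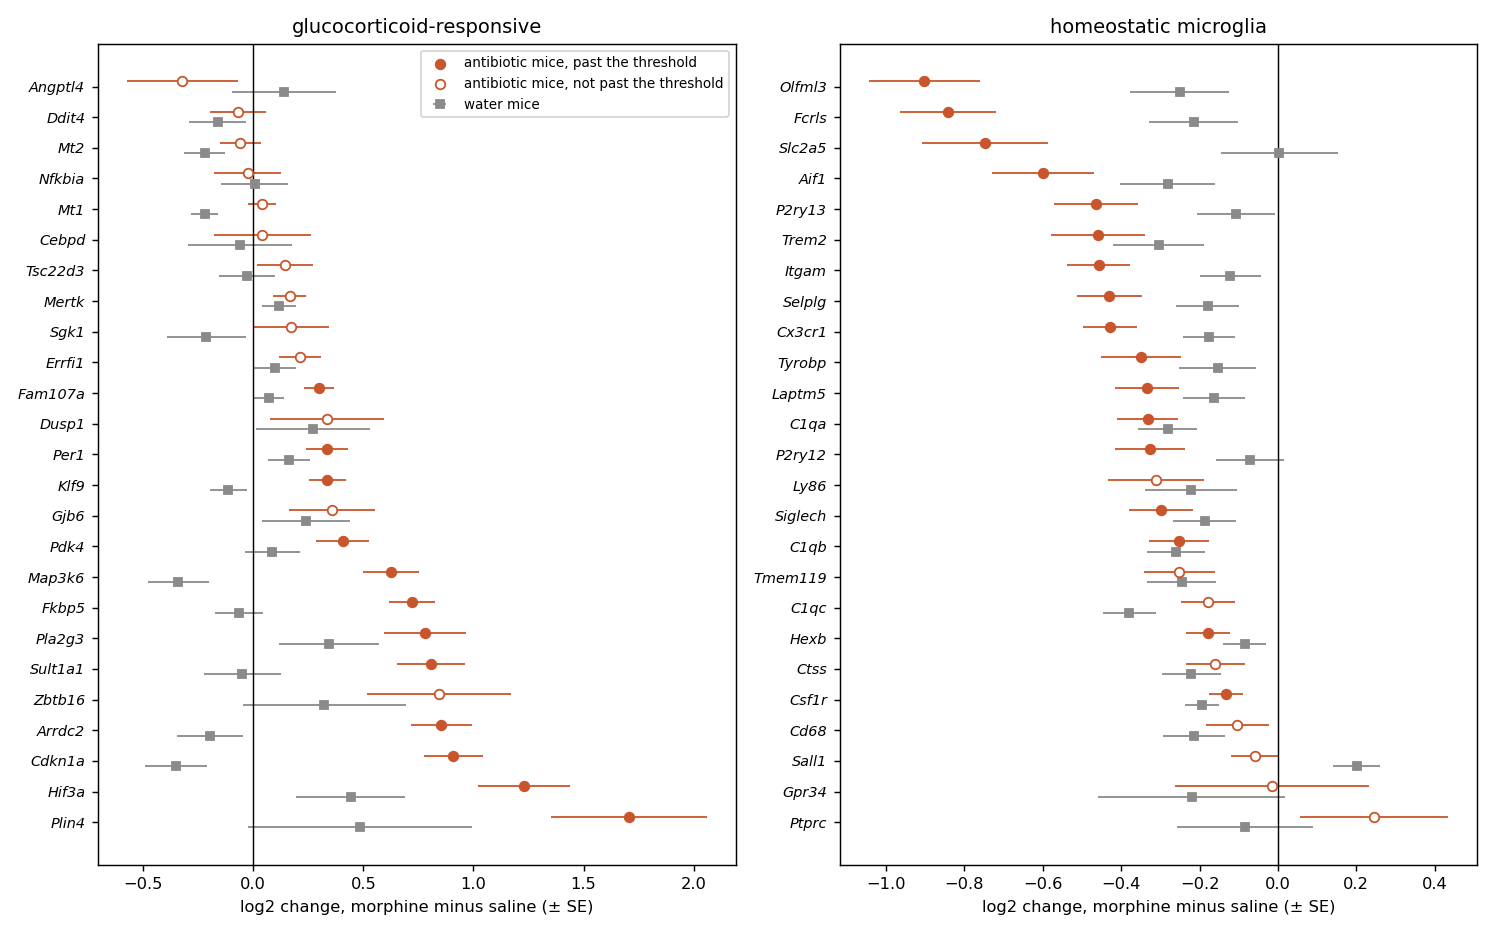
Log2 change (morphine minus saline, ± SE) of the 25 glucocorticoid-responsive and 25 microglia genes in antibiotic mice (orange, filled where past the threshold) and in water mice (grey squares). In antibiotic mice 12 genes of the first list lie past the threshold to the right of 0 and 17 of the second to the left.

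In the list of oligodendrocyte precursors and newly formed oligodendrocytes 5 of 18 fell and 1 rose, and 1 was lower with the length slope. Gpr17, a receptor that marks cells about to myelinate, lay at 71.2 to 87.8 CPM (median 78.7) after saline and at 54.9, 57.5, 59.7, 63.8 and 63.1 CPM after morphine (log2 change -0.41 ± 0.065, adjusted p = 0.000344). Olig2, the lineage transcription factor, lay at 23.8 to 29.97 CPM (median 25.8) after saline and at 17.1, 23.96, 20.3, 17.3 and 19.5 CPM after morphine with 1 morphine library inside the saline range (log2 change -0.42 ± 0.083, adjusted p = 0.00227). Vcan, a proteoglycan of precursors, lay at 27.6 to 42.9 CPM (median 33.7) after saline and at 51.5, 47.1, 46.04, 47.5 and 46.03 CPM after morphine without overlap (log2 change 0.47 ± 0.085, adjusted p = 0.00122). Of 26 myelin genes 5 rose and 6 fell, and the summed level of the list hardly differed, at 6682 to 7781 CPM after saline and 6713 to 7680 CPM after morphine. Car2, a carbonic anhydrase of oligodendrocytes, lay at 136 to 159 CPM (median 145) after saline and at 108, 112, 94.4, 109 and 123 CPM after morphine (log2 change -0.42 ± 0.059, adjusted p = 0.000208). Apod, a lipid carrier, lay at 130 to 167 CPM (median 148) after saline and at 289, 164, 292, 201 and 170.1 CPM after morphine (log2 change 0.60 ± 0.13, adjusted p = 0.00432), with morphine libraries 1 and 3 highest. Gpr17 and Car2 passed with the length slope, while Vcan, Olig2 and Apod did not (adjusted p = 0.145, 0.139 and 0.0501). Leaving out morphine library 1 or 3 or saline library 3 or 5 left 1 myelin gene higher, with 5, 5, 6 and 6 lower. The myelin count was 2 higher and 4 lower with only the antibiotic groups in the model, 2 and 5 with no filter on low counts, and 0 and 2 with the length slope.

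Fabp7 was the strongest of 4 astrocyte genes that fell of 24, with 0 higher. S100b, a calcium-binding protein of astrocytes, lay at 94.3 to 126 CPM (median 103) after saline and at 81.04, 79.8, 89.9, 74.98 and 98.2 CPM after morphine (log2 change -0.35 ± 0.090, adjusted p = 0.0147). The list had 2 genes lower without morphine library 1 or 4 or saline library 1 or 2, and 1, Fabp7, with the length slope. It summed to 8191 to 9307 CPM after saline and 8188 to 9013 CPM after morphine, ranges that lie almost on top of each other. Among 24 genes of progenitors and immature neurons 3 fell and 0 rose, with Fabp7 again first and Tubb2b, a tubulin of growing neurons, next. Tubb2b lay at 113 to 148 CPM (median 137) after saline and at 77.2, 115, 89.5, 91.1 and 90.8 CPM after morphine (log2 change -0.53 ± 0.079, adjusted p = 0.000308). It had morphine library 2 inside the saline range and did not pass with the length slope (adjusted p = 0.0675). Of 36 extracellular matrix and collagen genes 4 fell and 1 rose. Besides Serpinh1 the lowest p belonged to Plod1, a lysyl hydroxylase that modifies collagen. Plod1 lay at 22.1 to 26.9 CPM (median 24.6) after saline and at 16.7, 18.7, 18.9, 20.1 and 21.1 CPM after morphine (log2 change -0.37 ± 0.079, adjusted p = 0.0036). Without morphine library 1, 3 or 4 this list had 2 lower and 0 higher genes, without saline library 1 or 2 it had 2 lower and 1 higher, DESeq2 gave 7 lower and 1 higher, and the length slope left Serpinh1 alone.

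Vascular genes leaned downward. In the endothelial and blood-brain barrier list 7 of 27 fell and 2 rose. Slco1c1, a thyroid hormone transporter of brain capillaries, lay at 61.4 to 78.6 CPM (median 73.7) after saline and at 57.4, 54.8, 50.6, 57.96 and 59.1 CPM after morphine (log2 change -0.36 ± 0.063, adjusted p = 0.000802). Bsg, which escorts monocarboxylate transporters to the membrane, was at -0.21 ± 0.046 (adjusted p = 0.00527), and Emcn, a mucin of veins and capillaries, at -0.51 ± 0.12 (adjusted p = 0.00658). Mfsd2a, the barrier's carrier of lipid-bound docosahexaenoic acid, moved the other way and lay at 28.8 to 38.5 CPM (median 32.4) after saline and at 45.1, 42.5, 47.1, 49.9 and 45.02 CPM after morphine, without overlap (log2 change 0.47 ± 0.089, adjusted p = 0.00165). The count fell to 4 lower and 1 higher without morphine library 3 or saline library 1 or with only the antibiotic groups in the model, and to 0 with the length slope. The 27 genes summed to 1294 to 1446 CPM after saline and 1221 to 1337 CPM after morphine. Of 16 pericyte and smooth muscle genes 2 fell and 0 rose, with 0 to 4 lower when 1 library was left out (0 without morphine library 1, 4 without morphine library 5, and 1 without morphine library 2, 3 or 4 or saline library 1, 2 or 3) and 0 with the length slope. Of 9 ependymal and choroid plexus genes tested edgeR, DESeq2 and limma-voom each called 0, and at an unadjusted p under 0.05 there were 1 higher and 1 lower. Leaving out saline library 4 gave 1 higher, and leaving out saline library 6 gave 1 lower.

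Of 71 DNA repair and genome stability genes 14 rose and 1 fell (median 0.11). Xpc, the damage sensor of nucleotide excision repair, lay at 28.5 to 35.2 CPM (median 32.6) after saline and at 57.4, 48.2, 64.4, 53.4 and 46.8 CPM after morphine (log2 change 0.75 ± 0.10, adjusted p = 0.000133). Rev3l, the catalytic subunit of translesion polymerase zeta, lay at 43.7 to 57.7 CPM (median 52.5) after saline and at 83.4, 63.3, 80.3, 69.9 and 72.1 CPM after morphine (log2 change 0.50 ± 0.072, adjusted p = 0.000267). Fancm, a helicase of the Fanconi pathway, was at 0.61 ± 0.092 and Pms2, a mismatch repair factor, at 0.37 ± 0.073, both without overlap. Outside the list, Uvssa, which recruits repair factors to stalled RNA polymerase, lay at 7.90 to 17.5 CPM (median 13.7) after saline and at 26.3, 18.1, 26.6, 25.1 and 25.2 CPM after morphine (log2 change 0.87 ± 0.13, adjusted p = 0.000308). Of these, Xpc, Rev3l and Fancm passed with the length slope, where 5 genes of the list were higher and 0 lower, and Pms2 and Uvssa did not (adjusted p = 0.125 and 0.0574). Of 59 mRNA decay genes 9 rose and 1 fell (median 0.085). After Xrn1 came Dis3, a nuclease of the RNA exosome, at 12.7 to 13.7 CPM (median 13.2) after saline and 22.97, 17.99, 22.4, 19.6 and 18.5 CPM after morphine (log2 change 0.62 ± 0.10, adjusted p = 0.000448). Edc4, a decapping scaffold, was at 0.25 ± 0.044, and Cnot1, the scaffold of the CCR4-NOT deadenylase, at 0.22 ± 0.041. Without morphine library 3 the mRNA decay count was 6 higher and 0 lower, and with the length slope Xrn1 alone passed.

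Of 53 DNA and histone methylation genes 13 rose and 2 fell, and 44 had a log2 change above 0 (median 0.11). Tet2, which oxidises 5-methylcytosine, lay at 33.99 to 51.5 CPM (median 44.01) after saline and at 70.5, 60.9, 75.5, 68.3 and 64.4 CPM after morphine (log2 change 0.66 ± 0.095, adjusted p = 0.000269). Kmt2b, an H3K4 methyltransferase, lay at 95.3 to 126 CPM (median 106) after saline and at 144, 145, 156, 147 and 142 CPM after morphine (log2 change 0.45 ± 0.069, adjusted p = 0.000325), and Kdm5a, a demethylase of the same mark, was at 0.36 ± 0.064. The count was 7 higher and 1 lower without morphine library 3, 8 and 1 with only the antibiotic groups in the model, and 1 higher, Kmt2b, with the length slope. Of 41 histone acetylation genes 3 rose and 3 fell, and 1 was lower with the length slope. Hdac5, a class IIa deacetylase, lay at 184 to 222 CPM (median 205) after saline and at 161, 173, 156, 179.7 and 179 CPM after morphine, and it was that gene (log2 change -0.27 ± 0.057, adjusted p = 0.00309). Of 40 splicing and nuclear RNA genes 10 rose and 1 fell (median 0.11). Srsf5, a serine-arginine splicing factor, lay at 145 to 179 CPM (median 171) after saline and at 242, 209.8, 259, 206 and 185 CPM after morphine (log2 change 0.41 ± 0.083, adjusted p = 0.00244), and it passed with the length slope (adjusted p = 0.0405). Son, a scaffold of nuclear speckles, was at 0.30 ± 0.049 without overlap. The cold-induced Rbm3 was at 0.39 ± 0.088, with morphine libraries at 125, 108, 124, 113 and 98.6 CPM and saline libraries at 72.1 to 109 CPM (median 82.5). Tra2a, a splicing activator, was the member that fell, at -0.41 ± 0.086, and the length slope left Srsf5 and Tra2a. Of 43 ubiquitin-specific proteases, enzymes that remove ubiquitin, 16 rose and 2 fell (median 0.10). Usp3, which acts on histone H2A, lay at 18.1 to 27.98 CPM (median 26.8) after saline and at 38.2, 36.3, 42.1, 29.8 and 38.96 CPM after morphine (log2 change 0.54 ± 0.11, adjusted p = 0.00221). Without morphine library 3 the count was 9 higher and 2 lower, and with the length slope it was 0, while 32 of the 43 had a log2 change above 0 without it.

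**Figure D3:**
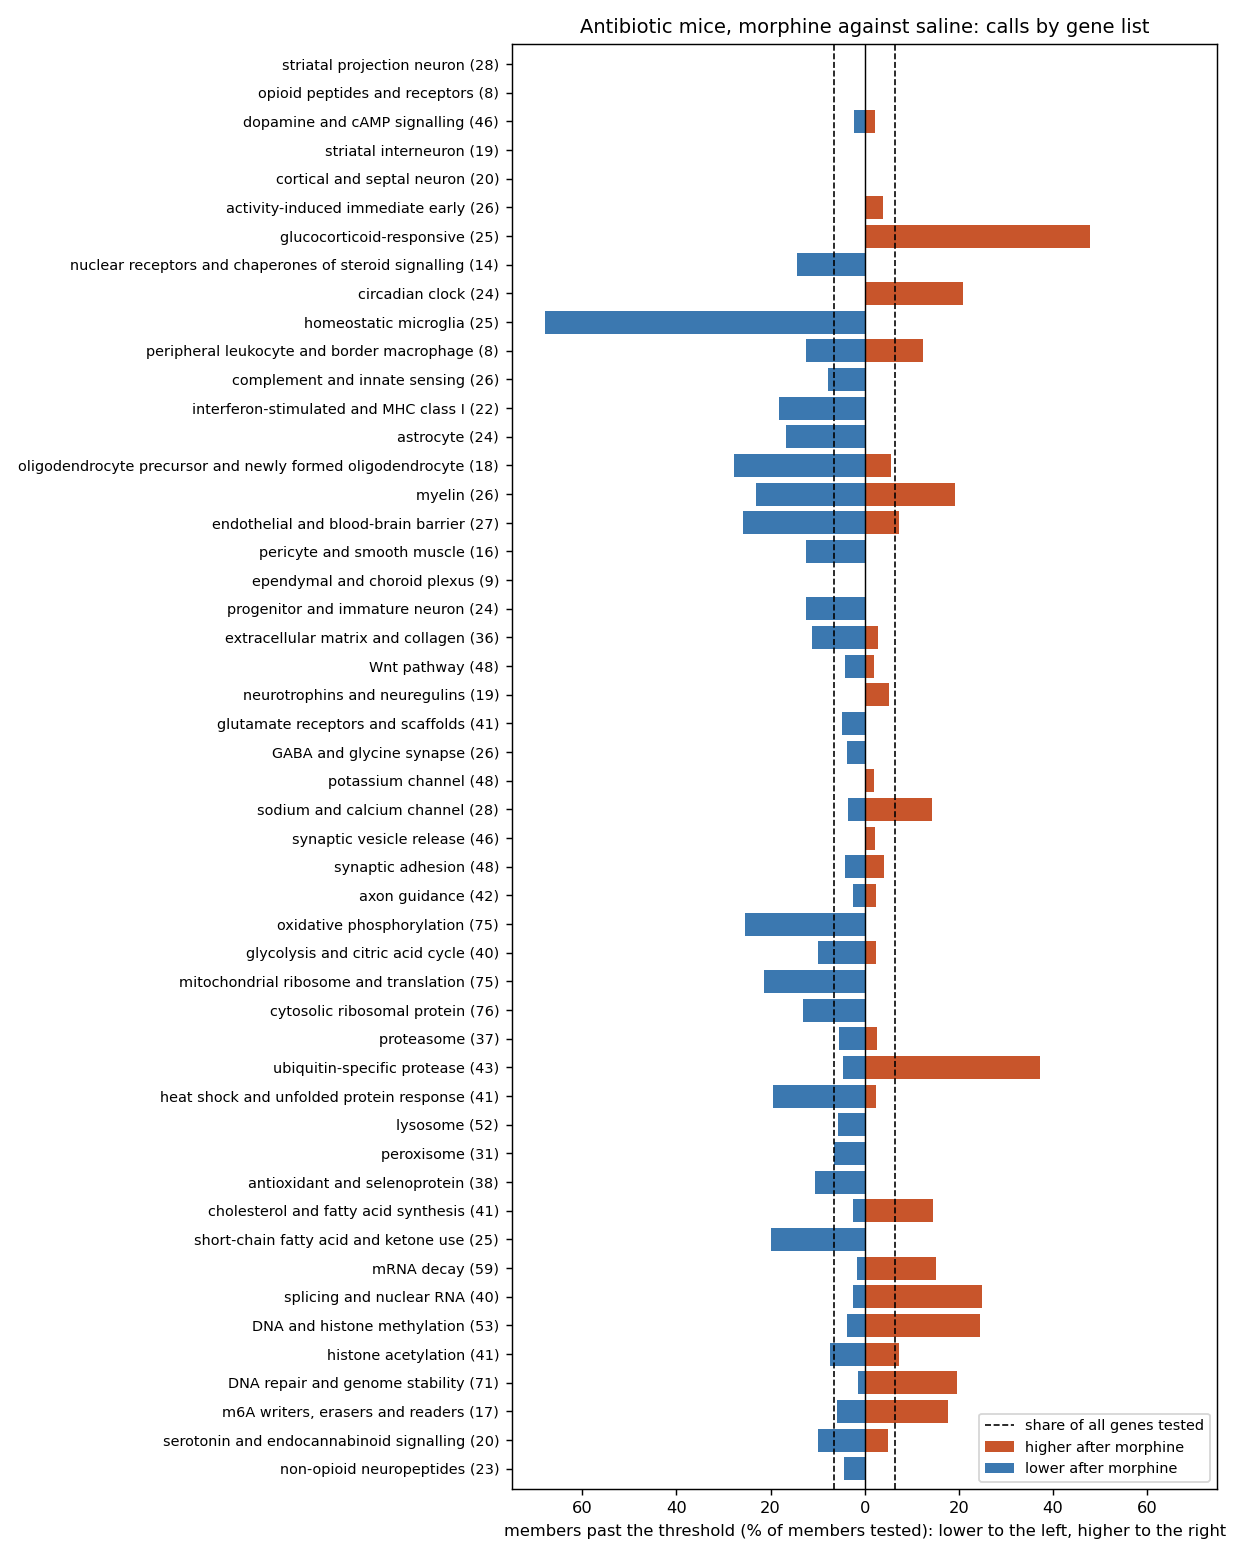
Share of the members of each gene list that passed the threshold in antibiotic mice, higher (orange, right) and lower (blue, left), with the number of members tested in brackets and the shares over all genes tested, 6.43% higher and 6.62% lower, as dashed lines. The glucocorticoid-responsive and ubiquitin-specific protease lists extend farthest to the right and the microglia list farthest to the left.

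Short transcripts of energy metabolism and translation leaned downward by small steps. Of 75 nuclear-encoded oxidative phosphorylation genes 19 fell and 0 rose (median -0.094), led by Atp5d, the delta subunit of ATP synthase, at 178 to 214 CPM (median 194) after saline and 167, 177, 161, 166 and 166 CPM after morphine (log2 change -0.23 ± 0.046, adjusted p = 0.00281). Of 75 genes of the mitochondrial ribosome and translation 16 fell and 0 rose (median -0.072). After Tufm came Mrps25, a protein of the small mitochondrial subunit, at 34.04 to 41.7 CPM (median 37.2) and 27.5, 31.3, 27.3, 29.4 and 31.2 CPM (log2 change -0.35 ± 0.054, adjusted p = 0.000325). Of 76 cytosolic ribosomal protein genes 10 fell and 0 rose (median -0.094), with Rpl28 first at -0.16 ± 0.039. The shares lower were 25.3%, 21.3% and 13.2%, at median lengths of 918, 1404 and 925.5 nt. Of all genes of 371 to 1375 nt 13.5% were lower (median -0.0986), and of those of 1375 to 1883 nt 11.2%. The share of the cytosolic ribosomal list was thus near that of all genes of its length. The 3 counts of lower genes moved with single libraries. Oxidative phosphorylation genes lower numbered 8 without saline library 1, 11 or 12 without morphine library 1, 3 or 4 or saline library 2 or 5, and 9 with only the antibiotic groups. Mitochondrial ribosome genes numbered 8 or 9 without saline library 1 or morphine library 1 or 3, and 7 with only the antibiotic groups. Cytosolic ribosomal genes numbered 3 to 6 without morphine library 1, 3, 4 or 5 or saline library 1, 2, 3 or 4, 16 without saline library 6, and 6 with only the antibiotic groups. The 3 counts with the length slope were 0, 2 and 0, without Mrps25, and the medians -0.046, -0.0084 and -0.0018.

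Of 41 heat shock and unfolded protein response genes 8 fell and 1 rose, and 4 remained lower with the length slope. Calr, the calcium-binding chaperone calreticulin, lay at 317 to 379 CPM (median 358) after saline and at 272, 302, 286, 269.8 and 263 CPM after morphine, without overlap (log2 change -0.34 ± 0.052, adjusted p = 0.000325). Pdia6, a disulfide isomerase, was at -0.34 ± 0.051 (adjusted p = 0.000308) and Pdia4, another, at -0.47 ± 0.095 (adjusted p = 0.00279). Hsph1, an Hsp110 chaperone of the cytosol, lay at 311 to 402 CPM (median 363) after saline and at 249, 314, 250.1, 269.8 and 274 CPM after morphine with 1 morphine library inside the saline range (log2 change -0.41 ± 0.068, adjusted p = 0.000473). These 4 are the genes that passed with the length slope. Ern1, the stress sensor IRE1, was the member that rose, with 5.71 to 8.67 CPM (median 7.53) after saline and 9.41, 9.38, 13.9, 9.56 and 10.6 CPM after morphine (log2 change 0.51 ± 0.12, adjusted p = 0.00587), and it did not pass with the length slope (adjusted p = 0.185).

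In a list named for the use of short-chain fatty acids and ketone bodies as fuel, 5 of 25 genes fell and 0 rose. A log2 change below 0 was seen in 23 of them (median -0.11). The list also holds genes that oxidise longer fatty acids, and such genes were among the 5. Oxct1, the enzyme that activates ketone bodies in mitochondria, lay at 294 to 332 CPM (median 308) after saline and at 228, 274, 215, 231 and 269 CPM after morphine (log2 change -0.35 ± 0.057, adjusted p = 0.000473). Acss1, which turns acetate into acetyl-CoA in mitochondria, lay at 28.4 to 40.3 CPM (median 34.5) after saline and at 19.6, 25.8, 23.9, 24.8 and 26.1 CPM after morphine (log2 change -0.52 ± 0.093, adjusted p = 0.00102). Acadm, a medium-chain acyl-CoA dehydrogenase, was at -0.29 ± 0.064 (adjusted p = 0.00432). None of these 3 had overlapping groups, and Oxct1 alone passed with the length slope (adjusted p = 0.0409). Of 31 peroxisome genes 2 fell and 0 rose, a share lower of 6.45% against 6.62% of all genes. They were Pex6 and Acaa1a, a thiolase of peroxisomal beta-oxidation (-0.30 ± 0.066, adjusted p = 0.00514). Acaa1a did not pass with the length slope (adjusted p = 0.357). In a list of 41 genes named for cholesterol and fatty acid synthesis, which also holds genes of export and control, 6 rose and 1 fell. Lss, which closes the sterol rings, lay at 21.7 to 25.2 CPM (median 24.8) after saline and at 33.6, 30.3, 30.7, 35.3 and 34.6 CPM after morphine without overlap (log2 change 0.46 ± 0.070, adjusted p = 0.000308). Abca1, which exports cholesterol, lay at 58.8 to 97.3 CPM (median 67.9) after saline and at 127, 92.2, 109, 102 and 100.5 CPM after morphine with 1 morphine library inside the saline range (log2 change 0.56 ± 0.10, adjusted p = 0.00135). Without morphine library 1 or 3 or saline library 1, or with only the antibiotic groups, this list had 4 higher and 0 lower, and with the length slope 0. Of 38 antioxidant and selenoprotein genes 4 fell and 0 rose, led by Prdx2, a peroxide-reducing enzyme, at -0.22 ± 0.041 (adjusted p = 0.00153). That count was 2 without morphine library 3 or 4 or saline library 2 or with only the antibiotic groups, and 0 with the length slope.

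Of the 28 genes of striatal projection neurons edgeR, DESeq2 and limma-voom each called 0, and 0 had an unadjusted p under 0.05 (median -0.078). Penk, the enkephalin precursor, lay at 705 to 1574 CPM (median 1266) after saline and at 1087, 1293, 1273, 1086 and 1250 CPM after morphine (log2 change -0.02 ± 0.15, adjusted p = 0.957). Drd1, listed as Drd1a, lay at 138 to 279.6 CPM (median 253) and 219, 281, 229, 217 and 272 CPM (log2 change 0.03 ± 0.15, adjusted p = 0.926), and Adora2a, the adenosine receptor of D2 neurons, at 129 to 350.2 CPM (median 280.3) and 182, 246, 207, 192 and 258 CPM (log2 change -0.32 ± 0.20, adjusted p = 0.334). In all 3 the lowest library was saline library 5, and the morphine values lay within the saline range for Penk and Adora2a. Of 8 opioid peptide and receptor genes 0 passed in edgeR, and 1 was higher at an unadjusted p under 0.05. That gene was Oprk1, the kappa-opioid receptor, at 20.4 to 48.5 CPM (median 37.5) after saline and 50.9, 50.6, 52.6, 41.6 and 50.1 CPM after morphine (log2 change 0.42 ± 0.15, adjusted p = 0.0759). It passed in DESeq2 and limma-voom, and in edgeR without saline library 3 (adjusted p = 0.0329). Oprm1, the mu-opioid receptor, lay at 1.62 to 7.48 CPM (median 4.04) and 4.79, 5.12, 6.26, 5.83 and 5.63 CPM, inside the saline range in every morphine library (log2 change 0.38 ± 0.24, adjusted p = 0.311). Without saline library 6, which had its highest level, Oprm1 passed as higher (adjusted p = 0.04996).

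Of 46 dopamine and cAMP signalling genes 1 rose and 1 fell, or 4.35% past the threshold against 13% of all genes. Adcy9, an adenylyl cyclase, lay at 102 to 139 CPM (median 122) after saline and at 156, 166, 156, 156 and 142 CPM after morphine (log2 change 0.35 ± 0.072, adjusted p = 0.00302). Gnai2, the alpha subunit of an inhibitory G protein through which opioid receptors signal, lay at 229.8 to 272 CPM (median 249.7) after saline and at 203, 212, 228, 218 and 210.3 CPM after morphine (log2 change -0.23 ± 0.054, adjusted p = 0.00707). Both had groups that did not overlap, and neither passed with the length slope (adjusted p = 0.399 and 0.577). Among 19 striatal interneuron genes edgeR, DESeq2 and limma-voom each called 0. Unadjusted, 1 was higher and 2 were lower at p under 0.05, and leaving out saline library 5 gave 1 higher. Among 20 cortical and septal neuron genes 0 passed in any of these tools, with 0 at an unadjusted p under 0.05. Their summed level was 356 to 1850 CPM after saline, highest in saline library 5, and 439 to 1307 CPM after morphine. Of 26 activity-induced immediate early genes only Per1 passed, and 23 had a log2 change above 0 (median 0.25). Fosb, whose product accumulates with repeated drug exposure, lay at 16.7 to 25.2 CPM (median 20.9) and 26.7, 28.4, 28.1, 26.6 and 20.9 CPM and did not pass (log2 change 0.33 ± 0.15, adjusted p = 0.157).

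Of 28 sodium and calcium channel genes 4 rose and 1 fell. The list has a median length of 7681 nt, and of all genes of at least 6870 nt 18.6% rose and 1.87% fell. Cacnb2, a calcium channel beta subunit, was at 0.25 ± 0.058 and Cacna1d, the pore of an L-type channel, at 0.23 ± 0.057, both without overlap. The count was 2 higher and 1 lower without morphine library 3 or 5 or saline library 1, 2 or 4, and 0 with the length slope. Of 48 potassium channel genes 1 rose, and 0 to 5 were higher when 1 library was left out (5 without saline library 6, and 0 without morphine library 1 to 4 or saline library 1, 2 or 4) and 0 with the length slope. Of 26 GABA and glycine synapse genes 1 fell and 0 rose. It was Gabra2, a GABA-A receptor subunit, at 26.7 to 38.1 CPM (median 32.3) after saline and 17.6, 25.97, 23.1, 25.4 and 28.4 CPM after morphine (log2 change -0.42 ± 0.098, adjusted p = 0.00726), and it passed with the length slope (adjusted p = 0.0409) but not with only the antibiotic groups in the model. Without saline library 3 or 6 the list had 1 higher as well. Of 48 synaptic adhesion genes 2 rose and 2 fell. Il1rapl1, a postsynaptic organiser, lay at 4.28 to 7.48 CPM (median 5.77) after saline and at 10.8, 8.61, 9.27, 9.17 and 9.74 CPM after morphine without overlap (log2 change 0.74 ± 0.12, adjusted p = 0.000448). Without morphine library 3 or with only the antibiotic groups 1 rose and 1 fell, and 0 rose and 1 fell with the length slope. Of 19 neurotrophin and neuregulin genes 1 rose, Erbb4, the neuregulin receptor of interneurons. Its level was 21.6 to 38.7 CPM (median 24.6) after saline and 38.1, 38.3, 47.5, 39.2 and 38.8 CPM after morphine (log2 change 0.59 ± 0.11, adjusted p = 0.00102). Saline library 6, at 38.7 CPM, was the only saline library of Erbb4 to reach the morphine range, and 2 genes of this list were higher without saline library 5 or 6. Il1rapl1 and Erbb4 did not pass with the length slope (adjusted p = 0.125 and 0.233).

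**Figure D4:**
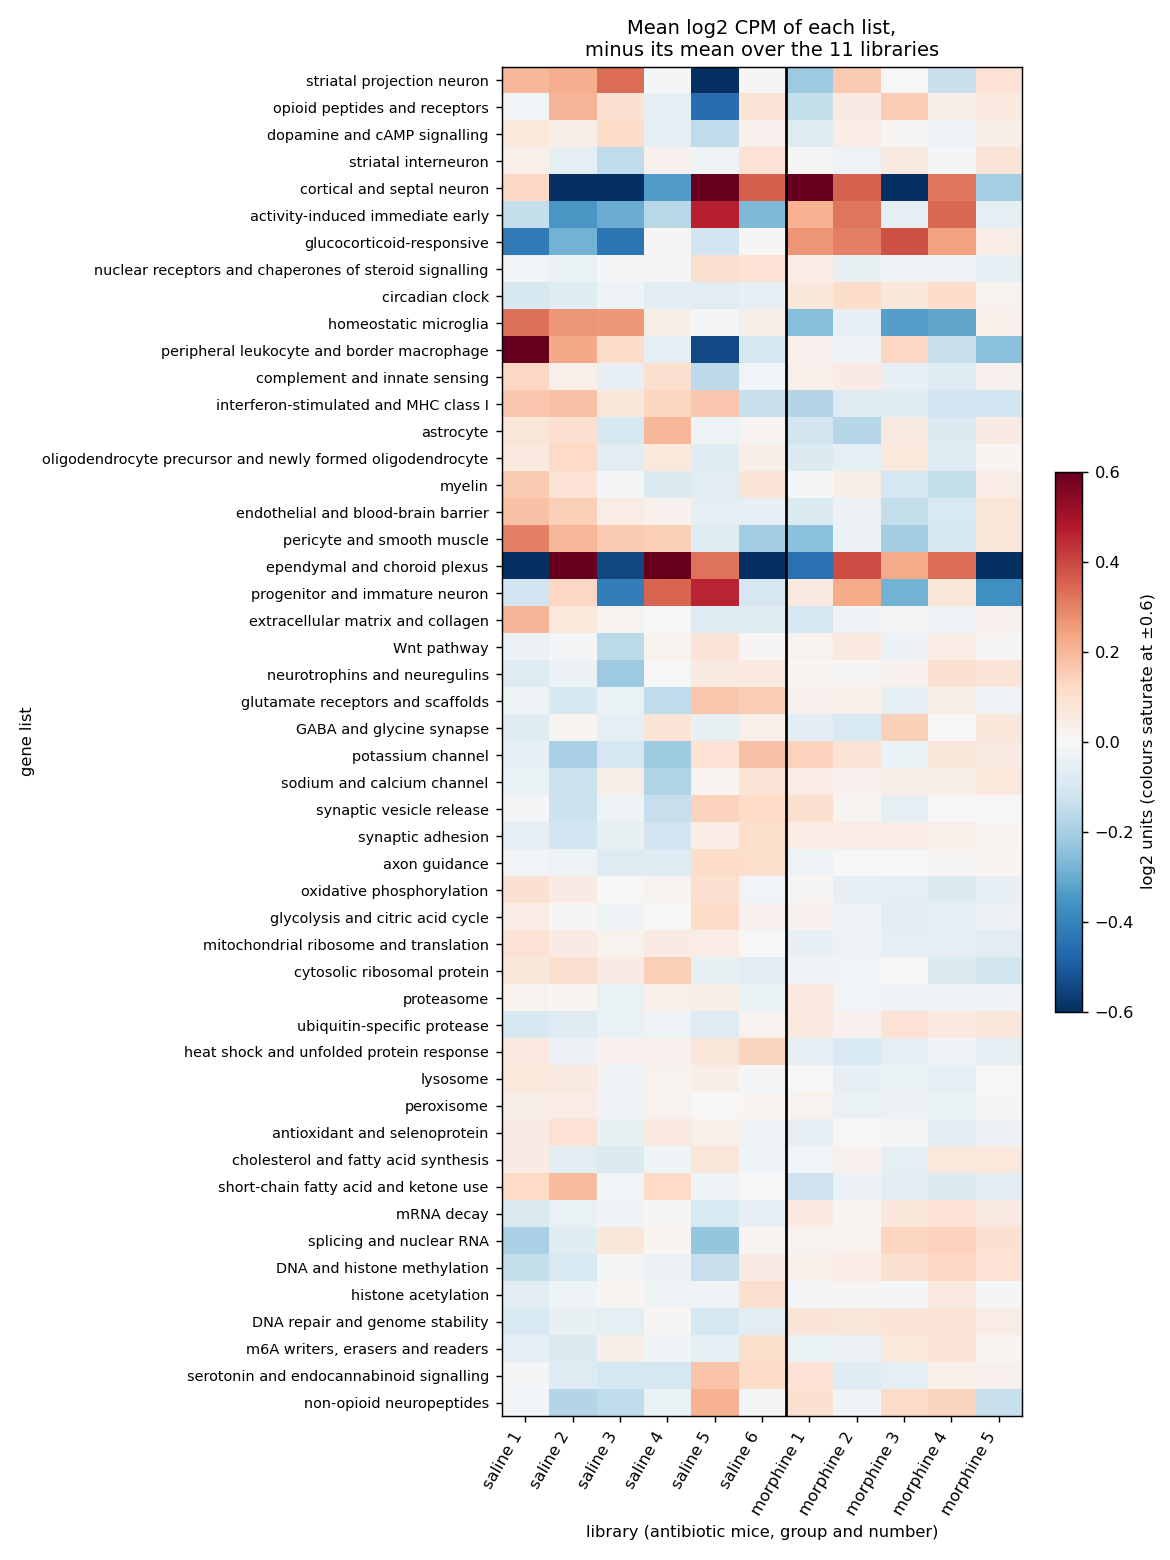
Mean log2 CPM of the members of each list in the 6 antibiotic-saline and 5 antibiotic-morphine libraries, minus the list's mean over the 11 libraries (red above, blue below, saturating at 0.6). The glucocorticoid-responsive row is higher in every morphine library than in any saline library, while the striatal projection neuron, cortical and septal neuron and ependymal rows differ mostly between single libraries.

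The median log2 change rose with transcript length. A gene's length was that of its longest coding transcript in GENCODE, known for 13891 of the 14564 genes, which were sorted into 10 bins of equal size. In the bin of shortest genes, with a median length of 1064 nt, the median log2 change was -0.0986, and 1.15% of genes passed as higher and 13.5% as lower. In the bin of longest genes, with a median length of 8436 nt, it was 0.109, and 18.6% passed as higher and 1.87% as lower. The medians rose from each bin to the next. In water mice they went from -0.114 to 0.177. Lists also differ in length, from a median of 918 nt for oxidative phosphorylation to 7681 nt for sodium and calcium channels, with 4776 nt for ubiquitin-specific proteases and 6487 nt for DNA and histone methylation. Some lists of long transcripts had a median log2 change below 0, among them axon guidance (6386 nt, median -0.028, 1 of 42 higher and 1 lower), glutamate receptors and scaffolds (5510 nt, -0.031, 0 of 41 higher and 2 lower) and extracellular matrix (5456 nt, -0.049). Others lay above 0, namely sodium and calcium channels (0.087), DNA and histone methylation (0.11) and synaptic adhesion (6079 nt, 0.052). The microglia list had a median length of 2242 nt and the glucocorticoid-responsive list one of 3096 nt, against 3259 nt for all genes. Each library's slope was computed from these same values, so adding it to the model flattens the bins by construction. With it in the model the medians of all 10 bins lay between -0.014 and 0.0088. The slope was higher in every morphine library than in saline libraries 1 to 5, and saline library 6 lay among the morphine libraries. The part of RNA quality or library preparation in this slope was not tested.

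**Figure D5:**
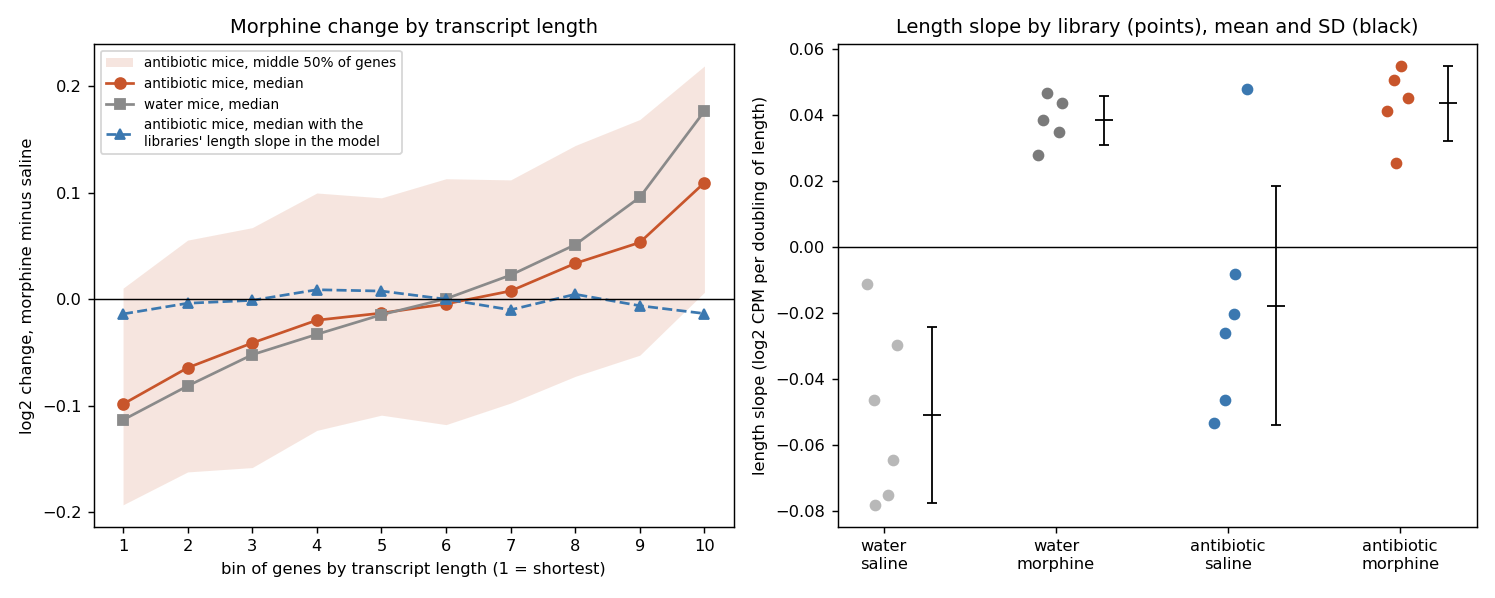
Left, median log2 change (morphine minus saline) by bin of transcript length in antibiotic mice (orange, band for the middle 50% of genes), in water mice (grey) and in antibiotic mice with the length slope in the model (blue). The blue line is nearly flat by construction, because the slope comes from the same values. Right, length slope of each library with the group mean and SD, where saline library 6, at 0.048, lies among the morphine libraries of antibiotic mice.

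The difference between the morphine change of antibiotic mice and that of water mice passed for 68 genes, 32 higher and 36 lower, or 0.467% of genes tested. In water mice 959 genes, or 6.58%, passed for morphine against saline (3.91% higher, 2.67% lower), and for the difference 0.22% were higher and 0.247% lower. Of the genes that passed in antibiotic mice 342 also passed in water mice with the same sign and 8 with the opposite sign. Wnt10b had the smallest p for the difference (2.47 ± 0.30, adjusted p = 0.000313), with water mice at 0.794 to 1.68 CPM after saline and 0.911 to 1.51 CPM after morphine. Fabp7 came next (-1.15 ± 0.16, adjusted p = 0.00163), at 23.8 to 29.3 and 25.04 to 34.7 CPM in water mice. Cdkn1a followed (1.26 ± 0.20, adjusted p = 0.00826), at 18.8 to 26.4 and 14.4 to 22.8 CPM. These 3 changes in water mice were -0.14 ± 0.23, 0.14 ± 0.11 and -0.35 ± 0.14. Stxbp4, a syntaxin-binding protein, was lower in antibiotic mice (-0.52 ± 0.087) against 0.20 ± 0.083 in water mice (-0.72 ± 0.12, adjusted p = 0.00992). Mtss1l, an actin regulator, stood at -0.32 ± 0.060 against 0.15 ± 0.059 (-0.47 ± 0.084, adjusted p = 0.0137). The call of Mtss1l in antibiotic mice alone was lost with the length slope (adjusted p = 0.103). These 5 genes kept the call of the difference in all 22 fits with 1 library left out.

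Pycrl also differed (-0.57 ± 0.10, adjusted p = 0.0126), as did Pcolce2, an enhancer of collagen processing (1.29 ± 0.22, adjusted p = 0.00992). Fkbp5 differed at 0.79 ± 0.15, adjusted p = 0.0206, with water mice at 59.4 to 68.2 CPM after saline and 55.2 to 71.2 CPM after morphine. Mfsd2a differed at 0.68 ± 0.13, adjusted p = 0.0173, with a change of -0.21 ± 0.092 in water mice. Of the 25 glucocorticoid-responsive genes 4 passed for the difference, all higher, of which Arrdc2 and Fkbp5 were lost without water-morphine library 2 (adjusted p = 0.0528 each), and in water mice 0 of them rose and 1 fell after morphine (median 0.0062). Of the 25 microglia genes 0 passed for the difference in edgeR or limma-voom and 2 were lower in DESeq2, while 1 was higher and 8 were lower at p under 0.05 before adjustment (median -0.15), and in water mice 1 rose and 4 fell (median -0.19). The larger microglia count in antibiotic mice is therefore not shown by edgeR to differ between both kinds of mice. Of the oxidative phosphorylation genes 30 fell in water mice and 0 passed for the difference in edgeR, DESeq2 or limma-voom, while 5 were higher and 0 were lower at p under 0.05 before adjustment. The count of 68 depended on single libraries: it was 28 without water-morphine library 2, 30, 35 and 42 without antibiotic-morphine library 3, antibiotic-morphine library 1 and antibiotic-saline library 1, 33, 37, 41 and 45 without water-saline library 3, 6, 5 and 4, and 42 and 41 without water-morphine library 3 and 6. DESeq2 gave 181 genes, limma-voom 70 and the length slope 87. A model with a term for each library number gave 10, and there the differences of Pycrl, Pcolce2, Fkbp5 and Arrdc2 did not pass.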

How the data were processed

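The authors deposited whole-number read counts per gene for each library, which are the values used here. Per the submitters' processing notes reads were checked with FastQC, aligned with STAR 2.4.0 and analysed with edgeR. Build, annotation, counter and strand setting: not given in the sources used here. Reads of antisense or overlapping partners may therefore be mixed. A normalised signal table deposited by the authors, with 10871 genes, served only to restrict the genes in an alternative. The 5 summary entries were dropped; they held 20.6 to 26.4% of counts. With R 4.3.3 and edgeR 4.0.16, genes were filtered with filterByExpr, scaled by TMM and fitted with a robust quasi-likelihood model of 4 groups over 22 libraries; SE is the log2 change divided by the root of F. DESeq2 1.42.0, limma 3.58.1 (voom), sva 3.50.0, other scalings, filters, covariates and left-out libraries were alternatives. The code was tested on simulated data.

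Named genes were those with the smallest p or largest change, up to 5 per list with the smallest p, the smallest p of the difference, and reference genes; the exceptions are stated. The comparison and the 51 gene lists were chosen with earlier results of these data known. No library pair looked like 1 library deposited in duplicate.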

Additional observations from a re-analysis of the deposited data

Results flagged for a closer look

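A library was marked where its gap to the nearest library of its group exceeded Dixon's 95% critical value for the group's range. This was so in 20 of 220 groups of values, and chance alone marks about 1 in 20 groups. In morphine library 1, Vcan was at 51.5 CPM against 46.0 to 47.5 CPM in the rest of its group. In morphine library 2, Ciart was at 40.2 CPM against 33.6 to 34.2 CPM in the rest of its group, and Uvssa was at 18.1 CPM against 25.1 to 26.6 CPM in the rest of its group. In morphine library 3, Erbb4 was at 47.5 CPM against 38.1 to 39.2 CPM in the rest of its group, and Ern1 was at 13.9 CPM against 9.38 to 10.6 CPM in the rest of its group. Also in morphine library 3, Insl6 was at 3.33 CPM against 1.44 to 1.78 CPM in the rest of its group. In morphine library 4, Malat1 was at 1007 CPM against 323 to 492 CPM in the rest of its group, and Oprk1 was at 41.6 CPM against 50.1 to 52.6 CPM in the rest of its group. In morphine library 5, Fosb was at 20.9 CPM against 26.6 to 28.4 CPM in the rest of its group. In saline library 1, C1qa was at 60.8 CPM against 43.9 to 49.4 CPM in the rest of its group, and Cdkn1a was at 29.6 CPM against 23.3 to 24.7 CPM in the rest of its group. In saline library 2, Olig2 was at 29.97 CPM against 23.8 to 26.1 CPM in the rest of its group. In saline library 4, Cry1 was at 50.1 CPM against 35.7 to 40.0 CPM in the rest of its group. In saline library 5, Bhlhe22 was at 18.4 CPM against 1.68 to 5.95 CPM in the rest of its group, and Drd1a was at 138 CPM against 239 to 279.6 CPM in the rest of its group. Also in saline library 5, Usp3 was at 18.1 CPM against 24.9 to 27.98 CPM in the rest of its group. In saline library 6, Erbb4 was at 38.7 CPM against 21.6 to 27.8 CPM in the rest of its group, and Malat1 was at 2463 CPM against 184 to 368 CPM in the rest of its group. Also in saline library 6, Pdia4 was at 55.8 CPM against 42.1 to 47.2 CPM in the rest of its group, and Serpinh1 was at 14.1 CPM against 16.8 to 18.3 CPM in the rest of its group. Why these libraries lay apart was not tested.

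The morphine change of 18 named genes differed between antibiotic and water mice in the edgeR test of the difference itself (antibiotic minus water, log2). It was more positive in antibiotic mice for Wnt10b (2.47, adjusted p = 0.000313), Cdkn1a (1.26, adjusted p = 0.00826) and Pcolce2 (1.29, adjusted p = 0.00992). Next came Mfsd2a (0.68, adjusted p = 0.0173), Arrdc2 (1.05, adjusted p = 0.0206) and Fkbp5 (0.79, adjusted p = 0.0206). Smaller positive differences were those of Ncapd3 (0.45, adjusted p = 0.048), Pik3c2a (0.39, adjusted p = 0.0484) and Nfrkb (0.42, adjusted p = 0.0499). It was more negative in antibiotic mice for Fabp7 (-1.15, adjusted p = 0.00163), Stxbp4 (-0.72, adjusted p = 0.00992) and Pycrl (-0.57, adjusted p = 0.0126). Next came Mtss1l (-0.47, adjusted p = 0.0137), Lasp1 (-0.42, adjusted p = 0.0141) and Tufm (-0.38, adjusted p = 0.0281). Also negative were Gpr17 (-0.42, adjusted p = 0.0337), Tubb2b (-0.50, adjusted p = 0.0386) and Serpinh1 (-0.69, adjusted p = 0.048). Of the 22 fits with 1 library left out, 10 lost Gpr17 (adjusted p of 0.0521 to 0.0842), 17 lost Ncapd3 (adjusted p of 0.0542 to 0.0962), 16 lost Nfrkb (adjusted p of 0.057 to 0.113) and 17 lost Pik3c2a (adjusted p of 0.0617 to 0.103). In the same way, 18 lost Serpinh1 (0.0535 to 0.115), 16 lost Tubb2b (0.0503 to 0.0851) and 9 lost Tufm (0.0521 to 0.0693).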

How the results depend on the processing

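The count of 1900 genes became 138 with the length slope, 1187 with only the antibiotic groups and 653 at an adjusted p under 0.01; it ranged from 1084 to 2048 when 1 library was left out. The count of 68 for the difference became 204 with 1 surrogate variable, 181 with DESeq2, 162 with the cortical and septal score, 6 at an adjusted p under 0.01 and 146 under 0.1; it ranged from 28 to 100 when 1 library was left out. Fewer samples or another threshold is part of these settings; otherwise the cause was not tested. Same-numbered libraries of both antibiotic groups had r of -0.355 to 0.145, and the other pairs had -0.346 to 0.375. So few same-numbered pairs cannot show whether the numbers mark a shared batch or cage. With a term for each library number in the model (replicate block) 1573 and 10 genes passed. Among the differences, those of Pycrl (adjusted p = 0.0609), Pcolce2 (0.0515), Fkbp5 (0.0793) and Arrdc2 (0.0682) did not pass there. Malat1 was at -0.24 and at -0.612 to 1.05 with 1 library left out, the latter without saline library 6 (adjusted p = 0.0328). Of 96 named genes that passed, 90 kept the call whichever library of the antibiotic mice was left out. Named genes were mostly picked for a small p, so this does not carry over to the 1900. Which sizes of change these 5 and 6 libraries could detect by expression level was not measured.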
